A study of Mus musculus with 12 samples.

Results

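The enzymes described here make serine and pass its carbon to folate. They were taken as the genes Phgdh, Psat1, Psph, Shmt1, Shmt2, Mthfd1, Mthfd2 and Tyms, each represented by 1 spot whose only gene symbol is that name, which is 8 of the 15081 genes named on the array. The list was selected on the NLS minus WT log2 ratios of these same arrays, Phgdh foremost, so differences between those forms are given for these genes as values without a test. Total RNA of 12 mouse samples was labelled with Cy3 and hybridised to spotted arrays together with a Cy5-labelled reference RNA from embryos. The study, on growth hormone receptor in the nucleus, titles each sample by a receptor form, WT (wild type) or NLS (usually short for nuclear localization signal), a 0 or a 1 before GH (growth hormone) and a replicate letter. Both forms were sampled at 0GH and at 1GH, with letters b, c and d in each of these 4 groups. Every sample is listed with human growth hormone at 100 ng/ml, and all titles carry a 10 after the receptor form. What the 0, the 1 and the 10 stand for is not stated, so the groups are reported by those names. The labels name neither the cells, the promoter of a receptor construct, nor whether the letters are separate cultures or a form is a single clone, so the spread between arrays may be technical.

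Values are log2 ratios of sample to reference after subtraction of the median of each array, so 0 means the median ratio of the 10762 features measured on all 12 arrays. The base of the logarithm is inferred from the range of the deposited values. Which channel stands in the numerator is not stated either. As deposited, 35 of 41 genes typical of embryonic tissue lay above the array median, so the deposited ratio was likely reference over sample, and every value was multiplied by -1. Under the opposite reading every sign below turns. Before centring, the medians of the NLS minus WT differences were -0.18 at 0GH and 0.35 at 1GH, and all differences below are relative to them. Across features, which are not independent replicates, pairs of arrays within a group had correlations from 0.337 to 0.634. Blank spots carried values too, 7.85% to 19.5% of them per array, and no signal intensities were used here, so a spot near background cannot be told from a bright one. The 3 lists of markers of solid tissues lay low against the reference, with medians of -4.97 for 6 hepatocyte genes, -2.50 for 6 fibroblast genes and -2.10 for 3 epithelial genes. The sign was turned so that genes typical of embryonic tissue lie low. Those genes include Afp of the hepatocyte list and Col1a1, Col1a2 and Col3a1 of the fibroblast list. The low position of these lists thus depends on that choice. The 5 lists of blood cell markers had medians between -0.73 and 0.81.

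Serine is made from an intermediate of glycolysis in 3 steps. Phgdh (phosphoglycerate dehydrogenase) commits phosphoglycerate to the pathway, Psat1 (phosphoserine aminotransferase) adds the amino group and Psph (phosphoserine phosphatase) releases serine. Shmt1 in the cytosol and Shmt2 in mitochondria then split serine into glycine and a carbon unit carried by folate. Mthfd1 and Mthfd2 interconvert the folate carriers in the same compartments, and Tyms (thymidylate synthase) spends the carbon on thymidylate for DNA. Growing cells, blood cells among them, are known to draw on this route for nucleotides. Of the 8 genes, 5 had a value on all 12 arrays and entered the fit. Psph had a value on 11, Mthfd1 on 8 and Tyms on 5. Over those arrays and all groups, the mean ratio to the reference was 0.81 (SD 1.23) for Phgdh, 0.10 (SD 0.58) for Psat1, -1.27 (SD 0.98) for Psph, -2.13 (SD 2.55) for Shmt1, 0.05 (SD 0.59) for Shmt2 and 0.16 (SD 0.61) for Mthfd2. Each spot has its own reference signal, so these levels do not rank the genes.

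Phgdh, the entry enzyme, was higher in every NLS array than in every WT array. Its centred log2 ratio was -0.91, -0.03 and -0.16 in letters b, c and d of WT 0GH, and -0.53, -0.47 and 0.31 in WT 1GH. It was 1.71, 2.32 and 2.41 in NLS 0GH, and 1.25, 2.22 and 1.55 in NLS 1GH. The groups of one form overlapped each other, while a gap of almost a log2 unit lay between the highest WT array and the lowest NLS array. At 0GH the mean was -0.37 ± 0.48 for the WT form and 2.15 ± 0.38 for the NLS form (SD, n = 3 each). At 1GH it was -0.23 ± 0.47 and 1.67 ± 0.50 (SD, n = 3 each). NLS minus WT was 2.52 (SE 0.43) at 0GH, or 5.72-fold, and 1.90 (SE 0.43) at 1GH, or 3.73-fold. At 0GH the 3 NLS values lay wholly above the 3 WT values for 1 of the 5 fitted members, Phgdh, against 4.66% of all features. At 1GH they did for 3, Phgdh, Shmt1 and Shmt2, against 4.48%. The reverse order was seen for 0 of 5 at either number, against 4.48% and 4.24%. Over both GH numbers, no overlap with NLS higher was seen for Phgdh alone among the fitted members and for 61 of 10762 features (0.567%), and with NLS lower for 0 of 5 members and 17 features (0.158%). Higher features thus made up 78.2% of those without overlap. After quantile normalization, with 46 higher and 22 lower, they made up 67.6%, and Phgdh was among them. By letter the difference was 2.63, 2.35 and 2.57 at 0GH and 1.77, 2.69 and 1.23 at 1GH, so all 6 pairs had one sign. Since Phgdh drew attention to these enzymes, this describes the gene and is no test of it.

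The sample dye differed between the receptor forms, mainly at 1GH in letters c and d. The labels give green dye incorporation as bases per dye molecule, where fewer bases mean more dye. This number was lower in NLS in 5 of 6 pairs of one letter and GH number, and equal in the other. In bases per dye molecule, NLS minus WT was 0, -0.5 and -0.2 in letters b, c and d at 0GH. At 1GH it was -0.1, -6.4 and -2.5. The WT 1GH sample of letter c stood apart at 19.2 bases per dye molecule. With this incorporation as a covariate, an alternative added after the data were seen, the difference of Phgdh was 2.47 at 0GH and 1.29 at 1GH. Leaving out that WT array, with no covariate, gave 1.78 at 1GH. With the covariate Shmt2, described below, was at 0.85 and 0.51. Any part of dye incorporation in these differences was otherwise not tested.

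**Figure D1:**
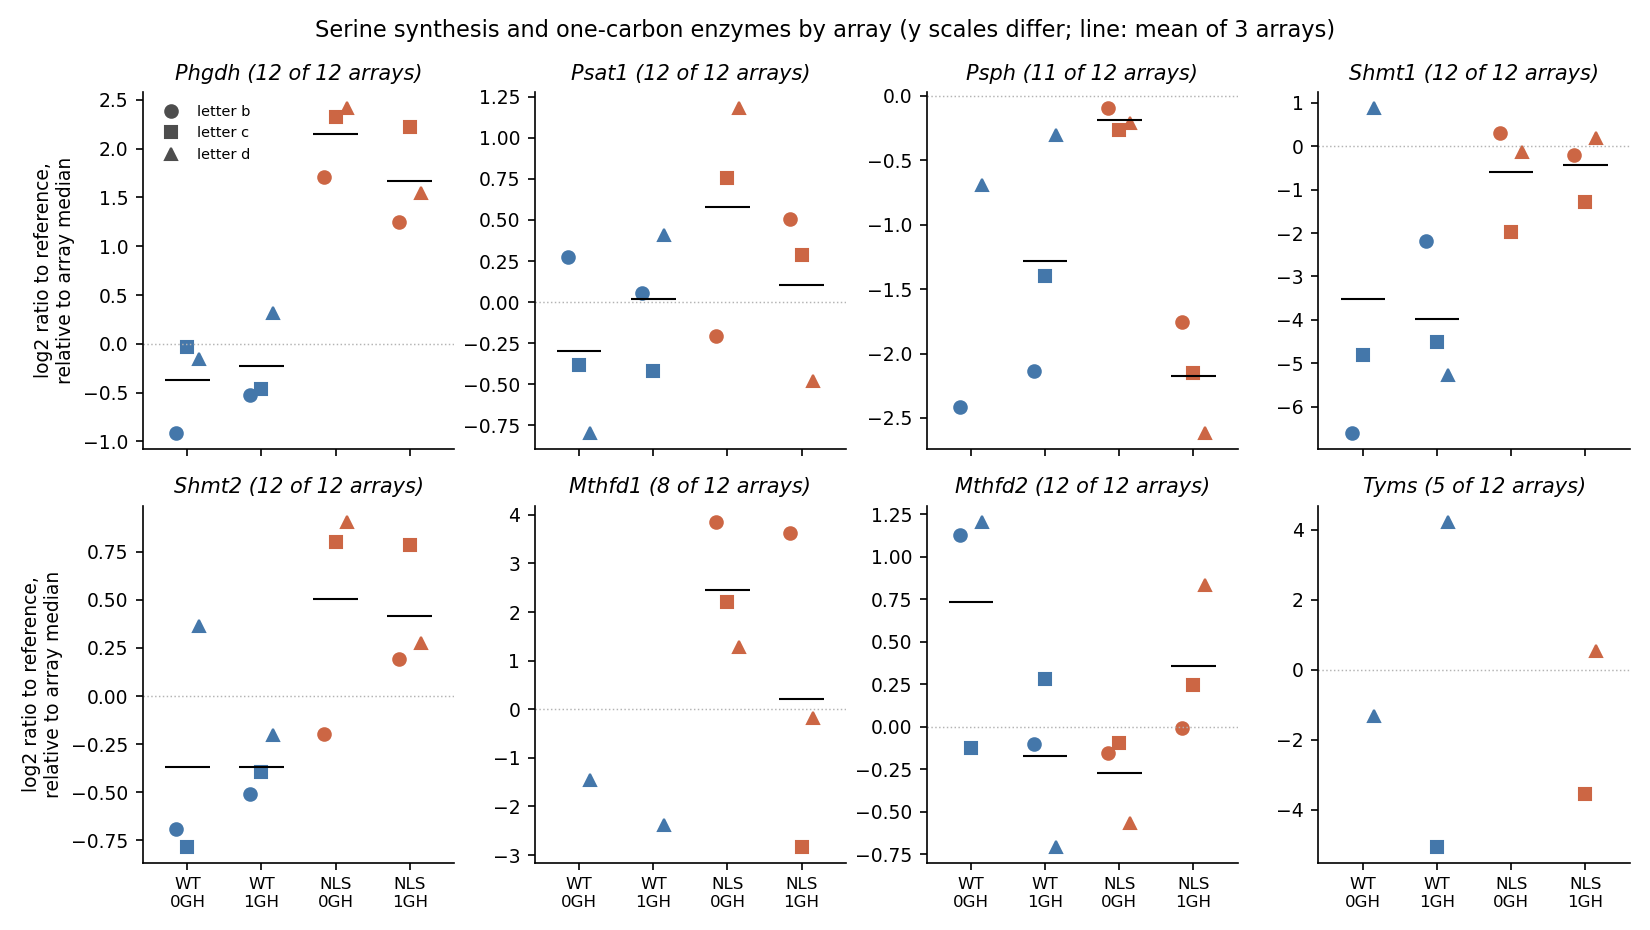
Centred log2 ratio to the reference (y, scales differ between panels) for each of the 8 genes in the 4 groups (x), 1 point per array, with the shape giving the replicate letter, WT in blue, NLS in orange and a line at the mean where all 3 arrays had a value. Phgdh spans -0.91 to 0.31 in WT and 1.25 to 2.41 in NLS, with no overlap, whereas Psat1 and Mthfd2 overlap between the forms, and Mthfd1 and Tyms lack most WT values or most values.

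The other enzymes of serine synthesis did not follow Phgdh array by array. Psat1 was 0.28, -0.38 and -0.80 in WT 0GH and 0.06, -0.42 and 0.41 in WT 1GH. It was -0.21, 0.76 and 1.18 in NLS 0GH and 0.51, 0.29 and -0.48 in NLS 1GH. The forms overlapped at both GH numbers, with NLS minus WT at 0.88 (SE 0.49) at 0GH and 0.09 (SE 0.49) at 1GH. The NLS array was the higher one in 4 of 6 pairs. At 0GH it was 1.56 without letter b, 0.33 without letter d and 0.57 without the NLS array of letter d. The value at 1GH ranged from -0.22 to 0.58 as single arrays or letters were left out and was -0.12 with the dye covariate.

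Psph had no overlap between the GH numbers within the NLS form, where 7.29% of the features fitted had none. In NLS 0GH it was -0.10, -0.27 and -0.21, the tightest group of any member, and in NLS 1GH it was -1.75, -2.15 and -2.62. In WT it was -2.41 and -0.69 at 0GH, with no value in letter c, and -2.13, -1.40 and -0.30 at 1GH. The WT arrays of both GH numbers lay below the NLS 0GH arrays, by a narrow margin for the highest, and across most of the range of NLS 1GH. Within letters, 1GH minus 0GH was -1.66, -1.88 and -2.41 in NLS and 0.28 and 0.38 in WT. Psph enters the fit only when at least 2 values per group are required instead of a value on all arrays, and the missing WT array is then dropped. In that fit of 15115 features, 1GH minus 0GH in NLS was -2.04 (SE 0.65, unadjusted p = 0.0120). The limma adjusted p was 0.9999, so Psph did not pass. The interaction of receptor form and GH number was -2.37 (SE 0.98, unadjusted p = 0.0382, limma adjusted p = 0.998). NLS minus WT was 1.46 (SE 0.73) at 0GH and -0.92 (SE 0.65) at 1GH.

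Of the serine hydroxymethyltransferases, the mitochondrial Shmt2 was higher in NLS in all 6 pairs. Its values were -0.69, -0.78 and 0.36 in WT 0GH and -0.51, -0.39 and -0.20 in WT 1GH. They were -0.20, 0.80 and 0.91 in NLS 0GH and 0.19, 0.79 and 0.27 in NLS 1GH. The forms were apart at 1GH and overlapped at 0GH through the WT array of letter d and the NLS array of letter b. The means were -0.37 ± 0.64 and -0.37 ± 0.16 in the WT groups and 0.50 ± 0.61 and 0.42 ± 0.32 in the NLS groups (SD, n = 3 each). NLS minus WT was 0.87 (SE 0.44) at 0GH and 0.79 (SE 0.44) at 1GH, or 1.83-fold and 1.73-fold. Phgdh and Shmt2 were the 2 of 5 fitted members with 6 such pairs, against 3.49% of all features.

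The cytosolic Shmt1 had the largest difference of the 5 fitted members and also the widest spread. It was -6.61, -4.80 and 0.88 in WT 0GH and -2.17, -4.52 and -5.28 in WT 1GH. It was 0.31, -1.97 and -0.12 in NLS 0GH and -0.19, -1.29 and 0.19 in NLS 1GH. The WT 0GH array of letter d lay above all NLS arrays, and the other 5 WT arrays lay below all of them. NLS minus WT was 2.92 (SE 1.65) at 0GH and 3.56 (SE 1.65) at 1GH. At 0GH it ranged from 0.91 to 5.11 as arrays or letters were left out. The SD within groups was 2.23 for Shmt1, against 0.46 for Phgdh, 0.47 for Shmt2 and a median of 1.001 over all features, so single arrays weigh more on Shmt1 than on the others. Whether its low WT values were near background cannot be read from these ratios.

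Mthfd2, the mitochondrial dehydrogenase that follows Shmt2, did not lie with it. Mthfd2 was 1.13, -0.13 and 1.21 in WT 0GH and -0.10, 0.28 and -0.70 in WT 1GH. It was -0.15, -0.09 and -0.57 in NLS 0GH and -0.01, 0.25 and 0.84 in NLS 1GH. NLS minus WT was -1.01 (SE 0.47) at 0GH and 0.53 (SE 0.47) at 1GH, opposite in sign, with overlap of the forms at both GH numbers. By letter it was -1.28, 0.03 and -1.77 at 0GH and 0.09, -0.04 and 1.54 at 1GH, so the value at 1GH rested on letter d. It was 0.03 without that letter, 0.27 without its WT array and 0.29 without its NLS array. At 0GH the difference was -1.53 without letter c and -0.62 without letter d. Over the 12 arrays Mthfd2 correlated with Shmt2 at r = -0.10 and with Phgdh at r = -0.37, as a description without a test.

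The remaining folate enzymes had too few values for a fit. Mthfd1, the cytosolic enzyme, had a value on all 6 NLS arrays and on 2 of 6 WT arrays, both of letter d. The values were 3.85, 2.21 and 1.27 in NLS 0GH and 3.62, -2.83 and -0.17 in NLS 1GH, against -1.45 in WT 0GH and -2.38 in WT 1GH. The forms overlapped, since the NLS 1GH array of letter c, at -2.83, lay below both WT values. In the 2 pairs that can be formed, both of letter d, NLS was higher by 2.73 and 2.21. Values on all 6 NLS arrays with at most 2 in WT were found for 9 of 22138 spots (0.0407%), and the reverse for 31 (0.14%). Why values are missing was not tested. Tyms had a value on 5 arrays, at -1.31 in WT 0GH, -5.05 and 4.23 in WT 1GH and -3.55 and 0.53 in NLS 1GH, so no comparison can be drawn from it. A spot named for the pseudogene Tyms-ps had a value on all 12 arrays, between 1.80 and 3.98 in WT and between 1.65 and 3.11 in NLS, with NLS minus WT at 0.08 (SE 0.59) at 0GH and -0.51 (SE 0.59) at 1GH. A near-identical copy may share its probe, so this spot is no measure of Tyms alone.

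The comparison of 1GH with 0GH was not itself used in choosing the genes and was tested. Its arrays, however, also enter the NLS minus WT differences on which the genes were chosen. The interaction is built from those differences. The p values of both, those of Psph above included, are therefore not independent of that choice. In limma 0 of 5 members passed in WT, in NLS or in the interaction, against 0% of the 10762 features in each. At an unadjusted limma p under 0.05 there were 289 features (2.69%) in WT, 314 (2.92%) in NLS and 260 (2.42%) for the interaction. Of the 15 member comparisons, 1 had such a p. Phgdh was at 0.14 (95% interval -0.83 to 1.11) in WT and -0.48 (-1.45 to 0.49) in NLS. Its NLS minus WT difference therefore differed between the GH numbers by -0.62 (SE 0.61), which did not pass (limma adjusted p = 0.9996). Shmt2 was at 0.0014 (-0.99 to 0.99) in WT and -0.09 (-1.07 to 0.90) in NLS, and Psat1 at 0.32 (-0.78 to 1.41) and -0.47 (-1.57 to 0.63). Mthfd2 gave that 1 comparison, an interaction of 1.54 (SE 0.66, unadjusted p = 0.0420, limma adjusted p = 0.9996), from -0.91 in WT and 0.63 in NLS. Without letter d it was 0.65 and without letter c 2.34. For Mthfd2 the 3 NLS 1GH arrays lay above the 3 NLS 0GH arrays, as arrays of one GH number lay apart in NLS for 7.29% of features. In WT, where 5.65% of features were apart, no fitted member was.

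**Figure D2:**
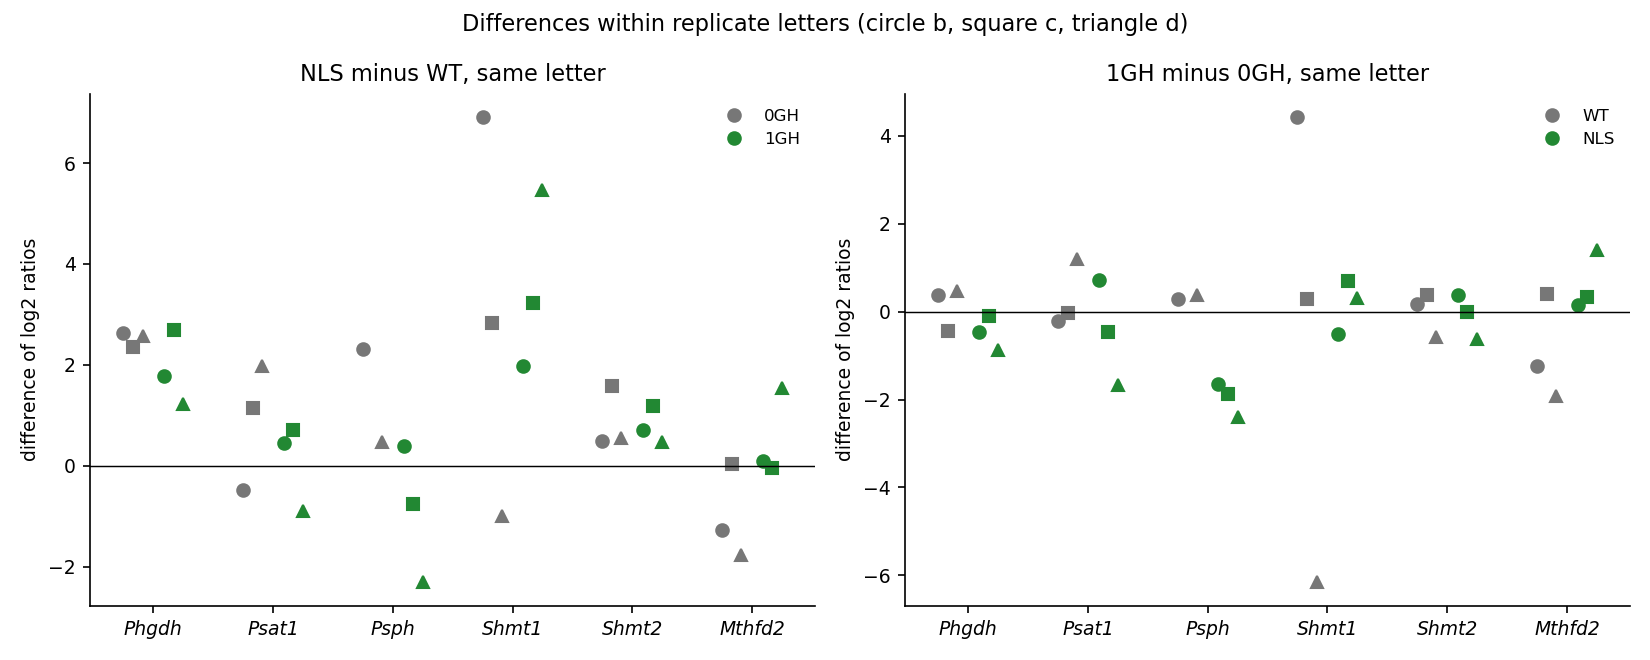
Differences of log2 ratios (y) between arrays of one replicate letter for 6 genes (x), NLS minus WT on the left with 0GH in grey and 1GH in green, and 1GH minus 0GH on the right with WT in grey and NLS in green. The 6 points of Phgdh on the left lie between 1.23 and 2.69 and those of Shmt2 between 0.48 and 1.58, while Shmt1 runs from -1.001 to 6.92, and on the right Psph lies at -1.66 to -2.41 in NLS.

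The DNA before the start sites is shown for Phgdh and Shmt2, the fitted members with NLS higher in all 6 pairs. Beside them are their pathway partners Psat1 and Mthfd2, with NLS higher in 4 and 3 of 6 pairs. These sets are not sharply divided, as NLS minus WT at 0GH was 0.88 for Psat1 and 0.87 for Shmt2. Shmt1, higher in NLS in 5 of 6 pairs, is not shown. The sequences are the 250 bases before the RefSeq start of each gene in GRCm38.p6, all on the minus strand, written 5′ to 3′, with capitals marking the letters CCAAT on either strand, the core recognised by the factor NF-Y. The windows are chr3:98339970-98340219 for Phgdh, chr10:127522445-127522694 for Shmt2, chr19:15925060-15925309 for Psat1 (the first of its 2 listed starts) and chr6:83317605-83317854 for Mthfd2.
Phgdh: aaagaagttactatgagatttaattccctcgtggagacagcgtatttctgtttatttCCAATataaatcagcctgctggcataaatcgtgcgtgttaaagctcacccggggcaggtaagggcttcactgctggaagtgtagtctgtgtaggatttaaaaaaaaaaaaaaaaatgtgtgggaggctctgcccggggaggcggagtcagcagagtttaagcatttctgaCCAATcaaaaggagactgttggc
Shmt2: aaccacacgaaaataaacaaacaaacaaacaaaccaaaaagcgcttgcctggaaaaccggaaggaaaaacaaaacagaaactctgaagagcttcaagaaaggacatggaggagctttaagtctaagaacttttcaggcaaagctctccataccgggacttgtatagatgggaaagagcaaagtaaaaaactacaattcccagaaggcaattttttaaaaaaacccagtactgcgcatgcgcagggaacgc
Psat1: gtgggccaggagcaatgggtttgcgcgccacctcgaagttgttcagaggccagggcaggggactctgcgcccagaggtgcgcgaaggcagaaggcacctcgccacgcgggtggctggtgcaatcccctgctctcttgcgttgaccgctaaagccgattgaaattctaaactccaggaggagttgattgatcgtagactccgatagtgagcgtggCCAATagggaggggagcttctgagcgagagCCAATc
Mthfd2: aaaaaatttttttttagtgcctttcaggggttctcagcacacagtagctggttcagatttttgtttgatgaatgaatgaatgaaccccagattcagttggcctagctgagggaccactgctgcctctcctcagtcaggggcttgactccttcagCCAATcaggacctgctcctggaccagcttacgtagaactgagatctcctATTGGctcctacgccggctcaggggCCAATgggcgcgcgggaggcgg

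The CCAAT core was present in the windows of Phgdh, Psat1 and Mthfd2 and not in that of Shmt2. Phgdh has copies ending 189 and 19 bases before the start, and Psat1 has copies ending 32 and 2 bases before it. Mthfd2 has 3 copies, 1 of them on the opposite strand. Of the 9 windows of the 8 genes, 6 held the core, in 6 genes, against 33.8% of the 32851 windows in the table. The letters CACGTG, the E-box core bound by Myc, were found for Tyms only and in 6.02% of all windows. TGATGNAA, a core of the elements bound by ATF4 with C/EBP proteins, was found in none of the 9 windows of these genes and in 3.45% of all. GGGCGG, the GC box, was found for Mthfd1, Psat1 (at its other start), Psph, Shmt1 and Tyms and in 32.7% of all windows. Both strands were searched. No 2 different motifs overlapped in a window of these genes, and in that of Shmt1 a pair of GGGCGG copies shared a base. A match of letters is not a binding site, and the motifs were chosen with the gene list known.

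Genes around the serine route were read from lists of neighbouring steps, as counts beside the same over all features, where 47.7% lay above 0 and the median NLS minus WT difference averaged over both GH numbers was -0.03. In these comparisons no list gene passed in limma, as 0% of all features did. Among genes of serine and glycine handling, 5 of 10 measured genes lay above 0, with a median of 0.04. Gldc, the decarboxylase of the glycine cleavage system, was the gene whose forms did not overlap, at -5.22 to -1.97 in WT and -1.51 to -0.63 in NLS, a difference of 1.88 (SE 0.54). Gcsh, the carrier protein of the same complex, was at 2.001 (SE 0.92) with overlapping forms, and is named after its value was seen. The list's 5 measured amino acid transporters, also named after their values were seen, lay on both sides of 0, with Slc6a9 at -0.76 (SE 1.29), Slc1a4 at -0.39 (SE 0.64), Slc1a5 at -0.20 (SE 0.87), Slc38a1 at 0.53 (SE 0.47) and Slc38a2 at 0.78 (SE 0.45). With the dye covariate the median of this list was -0.11 and that of the folate list -0.10, against 0.04 and 0.16 without it.

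Folate genes split evenly, with 4 of 8 above 0 and a median of 0.16. Slc19a1, the reduced folate carrier, had the largest difference at 1.91 (SE 0.80) and spanned -2.38 to 0.63 in WT and -2.78 to 2.70 in NLS, so the forms overlapped. In the methionine cycle and transsulfuration 3 of 8 lay above 0 with a median of -0.24. Cbs, which joins serine to homocysteine, was at -1.73 (SE 0.51), from -0.31 to 2.07 in WT to -1.62 to -0.25 in NLS, overlapping only narrowly. Genes of purine synthesis and of thymidine nucleotide supply, few of which handle folate carbon themselves, had 6 of 11 above 0 and a median of 0.03, and Ppat, the first enzyme of purine synthesis, was at 0.96 (SE 0.97).

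The list of amino acid response genes, targets of ATF4 as Phgdh and Psat1 are known to be, had 5 of 12 above 0 and a median of -0.06. Asns, the asparagine synthetase of that list and a widely used marker of the response, was at 0.65 (SE 0.42), named outside the rule for lists, and Cebpb, with the largest difference, at -1.44 (SE 1.34). The aminoacyl-tRNA synthetases had 10 of 16 above 0 and a median of 0.56, with Iars at 1.85 (SE 1.38). Their median was 0.47 at 0GH and 0.15 at 1GH. S phase genes had 12 of 21 above 0 and a median of 0.15, with Gins1 at -1.78 (SE 1.14). Their median was 0.24 at 0GH and -0.17 at 1GH.

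Glycolysis meets serine synthesis at phosphoglycerate, the substrate of Phgdh. Before that point 7 of 10 genes lay above 0, with a median of 0.33 (0.60 at 0GH and 0.009 at 1GH). Tpi1 was at 1.98 (SE 0.70), with overlapping forms. After that point all 4 measured genes lay above 0, with a median of 0.84 (1.06 at 0GH and 0.69 at 1GH). Pgam1, the mutase that takes phosphoglycerate onward and so shares a substrate with Phgdh, did not overlap between the forms, at -3.74 to -0.84 in WT and -0.52 to 1.28 in NLS, a difference of 2.37 (SE 0.48). These lists were chosen with earlier results known and share arrays with the values of Phgdh.

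**Figure D3:**
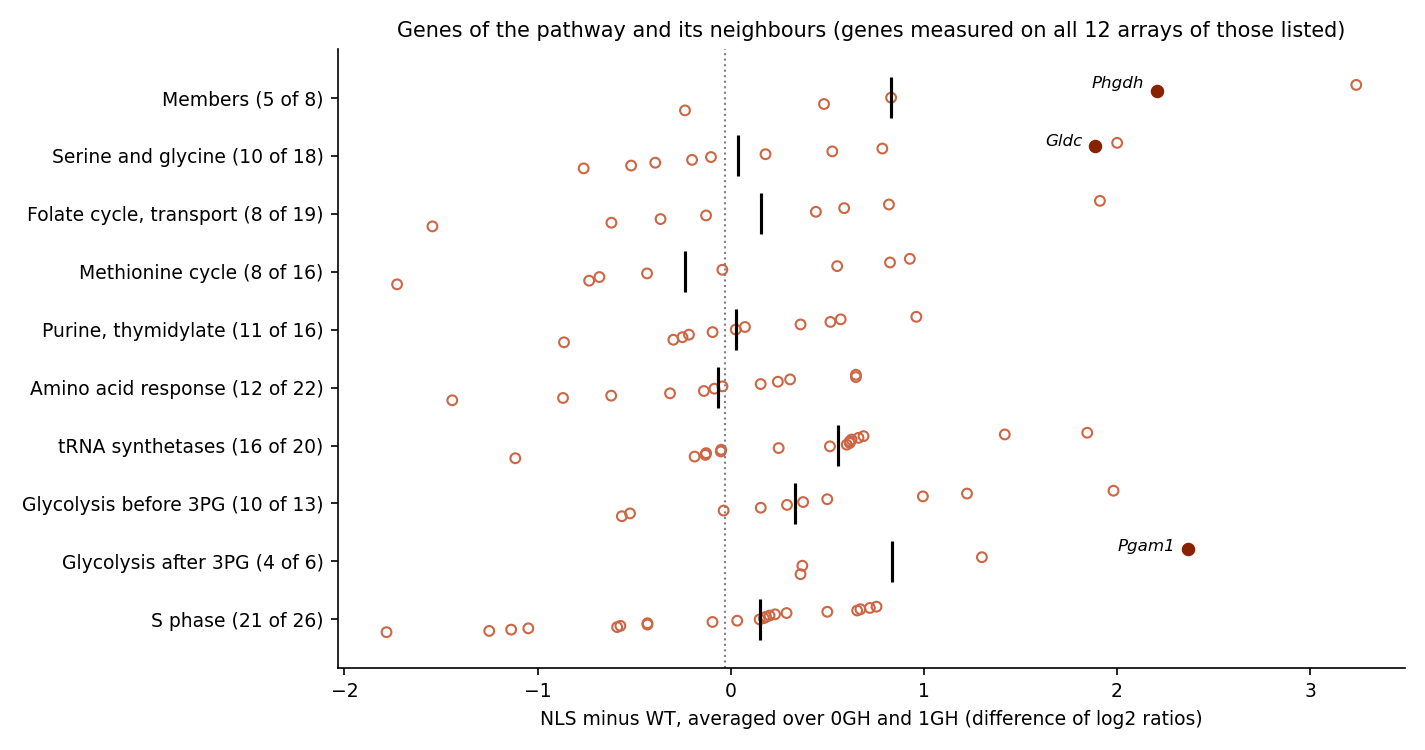
NLS minus WT difference of log2 ratios averaged over both GH numbers (x) for each gene measured on all 12 arrays, by list (y, with the measured and listed numbers of genes), where bars mark list medians, the dotted line the median of all features at -0.03 and filled points the genes whose 6 NLS arrays lie apart from the 6 WT arrays. Those genes are Phgdh at 2.21, Gldc at 1.88 and Pgam1 at 2.37.

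The 5 features whose centred values were most like those of Phgdh over the 12 arrays were Fkbp1a (r = 0.970, rho = 0.937), Eif5a (r = 0.952, rho = 0.930), Fkbp4 (r = 0.951, rho = 0.965), Ldha (r = 0.947, rho = 0.972) and Mybbp1a (r = 0.946, rho = 0.895). The receptor forms separate these values into groups, so r was also read within each form of 6 arrays. For Ldha, lactate dehydrogenase, it was 0.925 in WT and 0.953 in NLS. For Fkbp1a, an immunophilin, it was 0.926 and 0.830, and for Mybbp1a, a nucleolar protein, 0.693 and 0.629. For Eif5a it was 0.608 in WT and 0.890 in NLS, and for Fkbp4 0.880 and 0.804. Of the members Shmt2 was the closest to Phgdh, at 0.829 over all arrays, 0.370 in WT and 0.808 in NLS, with 55 features closer. Psat1 was at 0.512, -0.072 and 0.600, and Shmt1 at 0.611, 0.165 and -0.59. Arrays of a letter share a labelled reference, and the points share their array centring.

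Markers of blood cells were read in the same way, from NLS minus WT differences averaged over both GH numbers. Of 6 B lymphoid markers 5 lay below 0, Pax5 (-0.06) and Cd22 (-0.01) only slightly. At 0GH 2 of the 6 lay above 0, and at 1GH 3 did. Their list mean per array spanned -0.07 to 1.37 in WT and -0.58 to 1.70 in NLS. Of 3 erythroid and megakaryocyte markers 2 had an averaged difference below 0, with list means of -0.19 to 0.53 in WT and -0.52 to -0.12 in NLS. Of 4 T lymphoid and 4 mast cell or basophil markers 3 each were below 0, and of 3 myeloid markers 2 were, against 5629 of all 10762 features. Their part in the values above was not tested, and fewer cells of a type cannot be told apart from less RNA per cell in these samples.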

How the data were processed

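The deposited values are read as log2 ratios between the channels, a base inferred from their range of -14.6 to 18.2. Per the labels' design text, the authors normalized each array with Lowess smoothing over 50% of the data and raised control values under 200 to 200. Scanning and background steps are not given in the sources used. Of 23040 spots, 902 controls were left out, and 11245 of the remaining spots were measured on 12 of 12 arrays. Averaging spots of a gene gave 10762 features. The sign was turned and each array was centred on its median. Between 15939 and 19700 spots per array had a value, and precision is limited by 3 arrays per group.

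All features were fitted with limma 3.58.1 (lmFit and eBayes, R 4.3.3) on the 4 groups, two-sided, with Benjamini-Hochberg adjustment per comparison and a threshold of 0.05, after a check on simulated data. Members, lists and tests were chosen with earlier results of these data known. Genes named from a list are those whose forms did not overlap, or else the one with the largest averaged difference, and exceptions are stated where they occur. Likeness to Phgdh names the 5 highest r. Of the spots kept, 16720 had 1 gene symbol, 142 several and 5276 none, the latter kinds staying unnamed, and 16249 spots matched RefSeq genes by Entrez identifier. Promoter windows are from RefSeq in GRCm38.p6, and all 8 genes matched by symbol. Samples of one letter share the red dye incorporation in the labels, so the letter pairs them by reference labelling. Deviations from group means correlated at 0.0433 to 0.263 within a letter and at -0.187 to 0.066 between letters. Alternatives were no centring, quantile normalization, the letter as a block, at least 2 values per group, spots not averaged, arrays and letters left out, another centring for levels, and the dye covariate, added after the data were seen.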

Additional observations from a re-analysis of the deposited data

Results flagged for a closer look

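For Psph, 1GH minus 0GH differed in sign between the 2 receptor forms in every pair that could be formed. Within letters it averaged 0.33 over the 2 WT pairs with a value, all above 0, and -1.98 over the 3 NLS pairs, all below. In the wider filter it was 0.33 (SE 0.73) in WT and -2.04 (SE 0.65) in NLS, and neither passed in limma. The limma interaction gave an adjusted p of 0.998 in the wider filter, so the difference between the forms did not pass.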

How the results depend on the processing

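Across the alternatives tried, 0 features passed at an adjusted p of 0.05 in each of the 6 comparisons. The lowest limma adjusted p of a member was 0.936, for the interaction without letter b. For 1GH against 0GH it was 0.965, in NLS with the letter as a block. For each member 48 of 63 alternative NLS minus WT values could differ from the reported one, since the others left out arrays not in the comparison or used the replicate block. Among these 48 the sign turned in 6 for Psat1 and in 0 for Phgdh, Shmt1, Shmt2 and Mthfd2. Each letter holds 1 array of every group, so the replicate block cannot alter a difference (2.52 and 1.90 for Phgdh), and 0 features passed with it in each comparison. With dye incorporation as a covariate Phgdh was at 1.29 at 1GH. Without centring, 16 features had all NLS above all WT values, 1GH minus 0GH was -0.13 in WT for Phgdh and 0.23 in NLS and -0.26 in WT for Shmt2, and the interaction of Shmt2 was 0.49. That of Shmt2 in WT was -0.025 after quantile normalization and -0.0017 with spots not averaged. These signs turned around values near 0, and the cause was not tested.

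Leaving out arrays or letters, 1GH minus 0GH ranged in WT from -0.13 to 0.43 for Phgdh, -0.13 to 0.60 for Psat1, -2.94 to 2.36 for Shmt1 and -0.20 to 0.37 for Shmt2. In NLS it ranged from -1.06 to 0.12 for Psat1, -0.52 to 0.62 for Shmt1 and -0.44 to 0.19 for Shmt2. The interaction ranged from -1.65 to 0.25, -2.27 to 3.44 and -0.45 to 0.12 for these 3 genes. The features with NLS wholly above WT numbered 67 to 305, with 94 without the WT 0GH array of letter d and 305, 193 and 231 without letters b, c and d, since fewer arrays had to separate. Signal over background could not be assessed from ratios.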
